A study of Mus musculus with 6 samples.

Results

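The replication-dependent histone genes were followed in neural progenitor cells (NPCs) of *Armc5* knockout (KO) and wild-type (WT) mice. They were chosen by name alone, as every row of the deposited count table that holds a symbol starting with Hist1h, Hist2h, Hist3h or Hist4. This gave 46 of 53060 genes or merged loci, and the 46 loci hold 70 histone genes. By symbol, 6 of these genes belong to linker histone H1, 20 to H2A, 19 to H2B, 12 to H3 and 13 to H4, and 3 are annotated as pseudogenes (*Hist1h2aj*, *Hist1h2al* and *Hist3h2bb-ps*). On chromosome 13 lie 36 of the loci with 56 genes, the Hist1 cluster. Chromosome 3 holds 6 loci with 10 genes (Hist2), chromosome 11 holds 3 loci (Hist3), and chromosome 6 holds *Hist4h4* alone. The authors' assembly joined several genes at 15 loci, 4 of which mix histone types, and 31 loci stand for 1 gene each. Joined genes need not be neighbors. The locus of *Hist1h4m* and *Hist1h4j* spans chr13:21735064-21820200, and *Hist1h4k* lies between these genes as a locus of its own.

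The series holds 6 RNA-seq libraries, 3 of KO NPCs, in which both *Armc5* copies are disrupted in all cells (*Armc5*-/-), and 3 of WT NPCs. ARMC5 is part of a ubiquitin ligase that the study links to the turnover of RNA polymerase II (Pol II). Both groups were grown from ganglionic eminences of e13.5 fetuses, as neurospheres with epidermal growth factor (EGF) at 20 ng/ml, and used at passage 2. The labels give the strain of both groups as 129 sv X CD1, whereas the study describes its KO mice on a CD1 x C57BL/6 background. The study describes the libraries as 3 pairs of biological replicates, and neither it nor the labels say whether those of a group came from separate fetuses, so that p values measure only the spread between these libraries. Neurospheres are mixed cultures of stem cells, progenitors and some differentiating cells.

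Replication-dependent histone genes supply the core histones and H1 that package newly made DNA. Their mRNAs accumulate in S phase and are degraded at its end. Most metazoan histone mRNAs of this kind have no poly(A) tail. They end instead after a short stem-loop that is bound by the stem-loop binding protein SLBP, and the cut is guided by the U7 small nuclear RNA. Some of these genes can also yield polyadenylated mRNA from a site further downstream, mainly in cells that have left the cycle. The libraries were depleted of rRNA and made from total RNA, not selected for poly(A), so transcripts of both kinds could be counted.

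The stem-loop was looked for in the GENCODE M21 transcript models (GRCm38), in which all 70 genes were found. The 16 bases searched were a first arm of 6 bases (GG, pyrimidines, T), a loop of 4 and a second arm of 6 (A, purines, CC). A match was present in 46 of the 70 genes (65.7%), against 0.216% of all 55450 genes with a transcript, and in all 46 the arms pair in full. By type it was found in 4 of 6 H1, 11 of 20 H2A, 10 of 19 H2B, 9 of 12 H3 and 12 of 13 H4 genes. Of the 24 genes without it, 15 have models of at most 420 bases, which reach little beyond the coding sequence. The members differ in the arms by histone type. All 12 matching H4 genes have GGCCCT or GGTCCT as the first arm, and none of the 34 matching genes of the other types does. The windows of 26 bases show both kinds, for genes whose values are described later. Capitals mark the 2 arms, and the loop between them is in lower case. They come from transcripts at chr13:22042460-22042944 (*Hist1h2ag*, minus strand), chr13:23571396-23572013 (*Hist1h2bg*, plus), chr3:96238108-96239127 (*Hist2h3c2*, minus), chr11:58948920-58949533 (*Hist3h2ba*, plus), chr13:23581598-23582735 (*Hist1h4d*, plus), chr13:21831767-21832196 (*Hist1h4n*, minus), chr13:21735064-21735837 (*Hist1h4j*, plus), chr13:23760692-23761230 (*Hist1h4a*, minus) and chr6:136801553-136804415 (*Hist4h4*, minus).
Hist1h2ag (H2A): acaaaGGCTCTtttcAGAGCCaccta
Hist1h2bg (H2B): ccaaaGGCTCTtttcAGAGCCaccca
Hist2h3c2 (H3): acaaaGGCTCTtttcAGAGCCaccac
Hist3h2ba (H2B): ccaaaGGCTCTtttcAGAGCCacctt
Hist1h4d (H4): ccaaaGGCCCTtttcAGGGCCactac
Hist1h4n (H4): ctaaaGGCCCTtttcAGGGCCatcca
Hist1h4j (H4): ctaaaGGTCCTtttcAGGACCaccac
Hist1h4a (H4): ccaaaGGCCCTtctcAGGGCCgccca
Hist4h4 (H4): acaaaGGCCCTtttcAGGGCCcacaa

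The commonest form, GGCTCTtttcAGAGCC, was shared by 26 genes, among them members of H1, H2A, H2B and H3. The commonest H4 form, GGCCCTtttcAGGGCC, was shared by 7 genes. The poly(A) signal AATAAA lay within the last 50 bases of a model in 15 of the 70 members, against 36.5% of all genes. Of these 15, 12 also hold the stem-loop and 3 do not. *Hist2h2be* (chr3:96221119-96223738) is 1 of these 3, with a model of 2620 bases.

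Many of the genes lie in head-to-head pairs that share 1 short promoter stretch. There were 15 pairs with start sites within 1000 bases of each other, and 14 of them join an H2A gene to an H2B gene, with 172 to 305 bases between the starts. RefSeq promoter sequences (GRCm38.p6, 250 bases before to 50 after the start) were available for 61 members and were searched on both strands. TATAAA was found in 57.4% of the members and in 14.2% of all 27025 promoters. CCAAT was found in 85.2% of the members and in 37.9% of all promoters, and it was present in all 49 members of H1, H2A, H2B and H3 but in 3 of 12 H4 promoters. The octamer ATTTGCAT, to which POU factors such as OCT1 bind, was found in 7 of 17 H2A and 6 of 16 H2B promoters and in no H1, H3 or H4 promoter, 21.3% of the members against 1.75% of all promoters. A CCAAT and an octamer can overlap by their end letters, which was not counted apart. In a head-to-head pair, 1 site in the shared stretch can be counted for both genes, so the H2A and H2B counts are not independent. The percentages of the members include such sites. The octamer is shown in capitals in 4 H2B promoters, in windows of 30 bases at chr13:23746633-23746662 (*Hist1h2bb*), chr13:23571330-23571359 (*Hist1h2bg*), chr13:22035780-22035809 (*Hist1h2bk*) and chr3:96269641-96269670 (*Hist2h2bb*), all on the plus strand.
Hist1h2bb: ttgagtctcttATTTGCATaaagcctttga
Hist1h2bg: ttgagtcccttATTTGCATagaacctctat
Hist1h2bk: catttcactttATTTGCATacgaagttcta
Hist2h2bb: tgtgaaacctcATTTGCATacaagctctat

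The total counts at loci that name a gene lay between 52995791 in KO NPC 3 and 85170379 in KO NPC 1. *Armc5* was at 1.01, 1.63 and 0.729 CPM (counts scaled to library size) in the KO libraries numbered 1, 2 and 3 and at 31.1, 29.5 and 26.2 in the WT libraries 1, 2 and 3, as the labels have it (log2 fold change -4.68, SE 0.362, adjusted p = 0.0864 by edgeR's quasi-likelihood test). KO NPC 3 stood apart from all other libraries. It was the lowest library for 36.7% and the highest for 34.9% of the 19073 genes tested, and 4.89% of its counts lay at loci that name no gene, against 1.31% to 1.72% elsewhere. The histone loci took 1.27% and 1.37% of the counts in KO NPC 1 and 2 but 0.210% in KO NPC 3, and 1.01%, 1.31% and 1.22% in WT NPC 1, 2 and 3. The comparisons of the histone loci and of the main gene lists are therefore given with and without KO NPC 3.

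The histone genes were strongly expressed in 5 of the 6 libraries. Summed over the 46 loci, they reached 13066, 13959 and 1888 CPM in the KO libraries 1, 2 and 3 and 10548, 13455 and 12156 CPM in the WT libraries 1, 2 and 3, the order used from here on. The mean was 9638 ± 6726 CPM in KO NPCs and 12053 ± 1456 CPM in WT NPCs (SD, n = 3 each), a log2 ratio of -0.32 that became 0.16 without KO NPC 3. KO NPC 1 lay within the WT range and KO NPC 2 just above it, whereas KO NPC 3 was 6.92-fold below the median of the other 5 libraries. In bulk RNA, fewer cells in S phase and less histone mRNA per cell cannot be told apart.

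**Figure D1:**
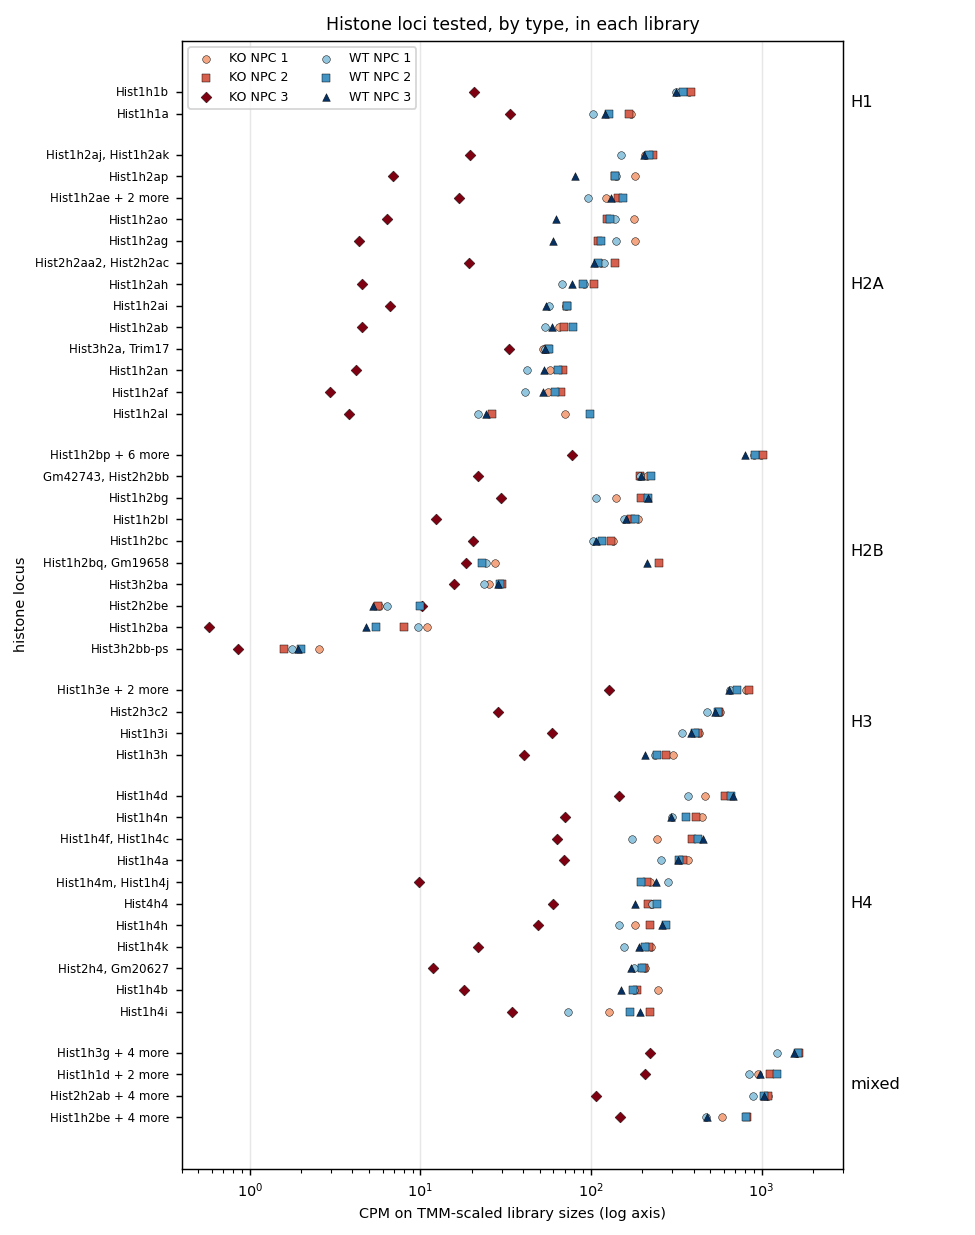
CPM (log axis) of each of the 44 histone loci tested, in rows by histone type and mean level, with 1 point per library. The dark red diamonds of KO NPC 3 lie to the left of all other points at 43 of 44 loci, while the points of KO NPC 1 and 2 lie near those of the WT libraries, with both above all WT points at 15 loci.

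Levels differed widely between members of a type. Per kb of exonic length, the mean level of the 44 loci tested ranged from 2.74 to 830.0 CPM, with a median of 152. H3 and H4 genes led this order, which also depends on the length of each locus. *Hist1h4d* (1211 bases) had a mean of 490.0 CPM and *Hist1h3i* (411 bases) a mean of 341 CPM, but per kb *Hist1h3i* came first. *Hist1h3i* had the highest level per kb of all, and in CPM it reached 427, 427 and 59.1 in KO NPCs and 340.0, 406 and 387 in WT NPCs. *Hist1h4n*, next in that order at 731 CPM per kb, was at 447, 415 and 70.6 CPM in KO and 299, 359 and 296 CPM in WT NPCs. KO NPC 1 and 2 lay above the WT libraries for both genes, and KO NPC 3 below them. *Hist1h4k* (545 CPM per kb), *Hist1h3h* (529.9), *Hist1h4a* (524) and *Hist2h3c2* (446) followed. The WT ranges of these 4 overlap, so their order is not fixed.

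Among H2B genes, *Hist1h2bl* led at 381 CPM per kb, followed by *Hist1h2bg* at 244 and the locus of *Hist1h2bp* and 6 other genes at 111. Among H2A genes *Hist1h2ap* (238), *Hist1h2aj* with *Hist1h2ak* (227) and *Hist1h2ao* (222) came first and lay close together. *Hist1h2bl* and *Hist1h2ai*, a head-to-head pair, stood at 381 and 142 CPM per kb. The H1 genes, whose proteins bind the linker DNA between nucleosomes, reached 163 CPM per kb in *Hist1h1a* and 109 in *Hist1h1b*. At the low end lay *Hist3h2bb-ps*, a pseudogene (3.82), *Hist2h2be* (2.74) and the 2 loci that did not pass the filter on low counts. These were *Hist1h1t*, the testis H1, with 9, 12, 1, 3, 10 and 6 counts in the 6 libraries, and *Hist1h2aa*, with 1 count in WT NPC 3 and 0 elsewhere, where a count of 0 allows up to 3 counts in a library.

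Counts of single members are uncertain, because the coding sequences are nearly alike. With reads of 100 bases, 60 of the 70 genes share at least 1 exact run of that length with another member, with a median of 9 and up to 15 partners. This holds for all 12 H3 genes, 18 of 20 H2A, 17 of 19 H2B, 10 of 13 H4 and 3 of 6 H1 genes. *Hist1h4d*, *Hist4h4*, *Hist2h2be* and *Hist1h1a* are among the 10 that share none. The sources used here do not give how reads that fit several genes were shared out, and sums by type depend on it less than single genes.

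KO NPC 3 was lower than every other library at 43 of 44 loci, against 36.7% of all genes tested. It lay more than 4-fold under the lowest other library at 30 of 44 loci, against 3.71% of all genes. The median of the other 5 libraries exceeded KO NPC 3 by 7.12-fold at the median locus (0.564 to 26.2), by over 5-fold at 31 and by over 10-fold at 16 loci. Every type took part, but not to the same degree. Summed by type, the ratio was 10.2 for H2A, 8.76 for H1, 8.34 for H2B, 7.51 for H3 and 5.67 for H4, and 6.23 for the loci of mixed type. The sums by type leave out genes in mixed loci, so the H1 sum holds 3 of 6 H1 genes and the H3 sum 6 of 12. The other H1 genes lie in mixed loci that also hold H2B genes, with ratios of 4.75 (*Hist1h1c* and *Hist1h1d*) and 3.96 (*Hist1h1e*). The order of types thus holds only for genes outside the mixed loci. H4 loci made up 29.4% of the summed histone CPM in KO NPC 3 and 22.2% to 25.9% in the other libraries, and H2A loci 7.05% against 8.37% to 11.1%. These are values of 1 library, with no replicate.

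**Figure D2:**
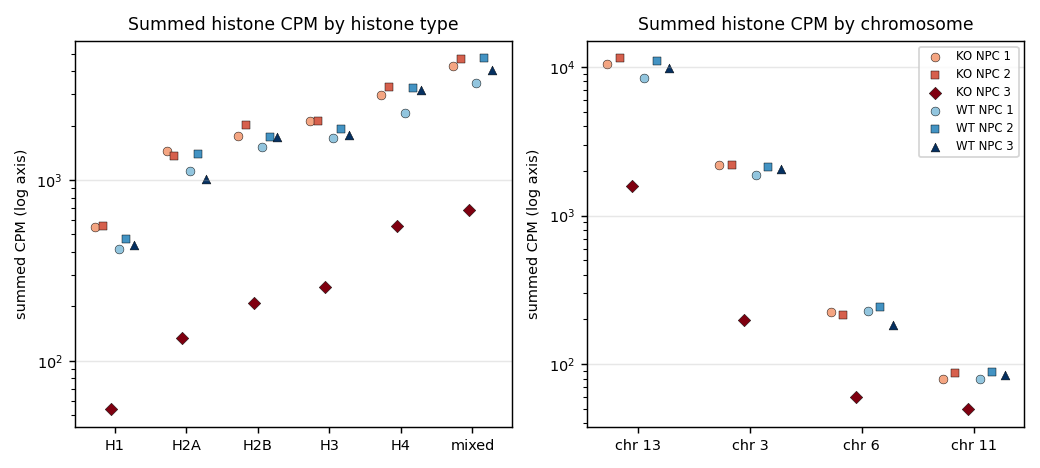
Summed CPM (log axis) of the histone loci by histone type (left) and by chromosome (right), with 1 point per library. KO NPC 3 lies below all other libraries in every group, by 10.2-fold for H2A and by 1.69-fold for the loci on chromosome 11.

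The largest ratios of the other libraries to KO NPC 3 were found for H2A genes of 1 stretch of the Hist1 cluster. *Hist1h2ag* was at 182, 111 and 4.34 CPM in KO and 141, 114 and 60.3 CPM in WT NPCs, which put KO NPC 3 26.2-fold below the median of the others. *Hist1h2ao* (20.5-fold), *Hist1h2ap* (20-fold) and *Hist1h2ah* (19.7-fold) were close to it. Outside H2A, the joined H4 genes *Hist1h4m* and *Hist1h4j* were at 222, 214 and 9.88 CPM in KO and 282, 198 and 241 CPM in WT NPCs, a ratio of 22.5. *Hist2h3c2* was at 568, 565 and 28.4 CPM in KO and 478, 552 and 537 CPM in WT NPCs, a ratio of 19.5. At all of these, the other 5 libraries lay far above KO NPC 3.

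*Hist1h1a*, which encodes H1.1, was at 172, 168 and 33.5 CPM in KO and 103, 127 and 121 CPM in WT NPCs, a ratio of 3.79. *Hist1h4d* was at 467, 613 and 146 CPM in KO and 370.0, 661 and 682 CPM in WT NPCs, a ratio of 4.2. These were the smallest ratios among the single-gene loci of the Hist1 cluster.

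By position, the Hist1 cluster fell into 2 stretches on chromosome 13 with a gap between them. In the first stretch (chr13:21715763-22043676, 17 loci tested) the median ratio of the other libraries to KO NPC 3 was 11.8, and in the second (chr13:23517366-23934156, 16 loci tested) it was 5.93. The ranges, 1.49 to 26.2 and 3.79 to 19.1, overlapped. *Hist1h2al*, a pseudogene that lies apart at chr13:51202727-51203065, had a ratio of 6.9. On chromosome 3 the median was 9.35 over 6 loci. The share of chromosome 3 in the summed histone CPM was 10.5% in KO NPC 3 and 15.7% to 17.7% in the others.

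The Hist3 loci on chromosome 11, with ratios of 1.64 to 2.27, and *Hist4h4* on chromosome 6 differed less than most. Only *Hist2h2be* and the merged locus of *Hist1h2bq* and Gm19658, at 1.49, had lower ratios than the Hist3 loci. *Hist3h2ba* was at 25.2, 30.1 and 15.8 CPM in KO and 23.5, 29.2 and 28.3 CPM in WT NPCs, a ratio of 1.79. *Hist3h2a*, joined with the neighboring gene *Trim17*, had a ratio of 1.64, and its count includes that gene. *Hist4h4* was at 225, 215 and 60.1 CPM in KO and 227, 244 and 182 CPM in WT NPCs, a ratio of 3.74. *Hist2h2be* was the exception to the pattern. It was at 5.73, 5.61 and 10.2 CPM in KO and 6.37, 9.90 and 5.31 CPM in WT NPCs, so that KO NPC 3 was the highest library, though by little over WT NPC 2.

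Some of these loci share a feature of their transcript models, whereas *Hist3h2bb-ps* (ratio 2.27) does not have it. Of the 29 single-gene loci tested, 4 have AATAAA near the end of a model, namely *Hist2h2be*, *Hist3h2ba*, *Hist4h4* and *Hist1h4a*, and their ratios were 0.564 to 4.74. The 11 with the stem-loop and no AATAAA had ratios of 4.2 to 26.2 with a median of 9.93, and the 14 with neither, mostly short models, had ratios of 2.27 to 19.7 with a median of 10.1. Over all 44 loci, merged ones included, the median ratio was 4.74 for the 13 with AATAAA in a gene and 8.95 for the 31 without. This grouping was made after the values were seen and is a description of 1 library. Among merged loci with AATAAA the ratio reached 22.5, at *Hist1h4m* and *Hist1h4j*.

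**Figure D3:**
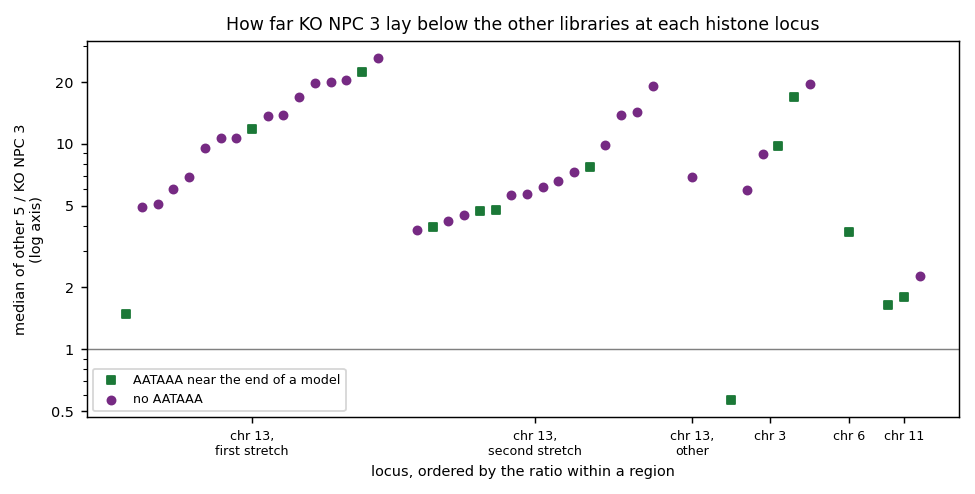
Ratio (log axis) of the median of the other 5 libraries to KO NPC 3 at each histone locus tested, grouped by position and ordered by the ratio. Green squares mark loci with AATAAA in the last 50 bases of a gene model, and 1 of them, *Hist2h2be* on chromosome 3, lies below the line at 1 with a ratio of 0.564.

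The comparison of KO with WT NPCs asked whether loss of *Armc5* changed these mRNAs. No histone locus passed the threshold. Of 44 loci tested, 0 passed an adjusted p of 0.05 in the quasi-likelihood test of edgeR, where 0.0% of all genes did, and 0 had an unadjusted p under 0.05, against 1.61% of all genes. By edgeR's likelihood ratio test 0 of 44 were called (0.0891% of all genes), and by DESeq2 0 of 44 (0.184%). KO and WT values overlapped at all 44 loci, whereas every KO library lay below every WT library for 3.28% of all genes and above for 2.74%. Log2 fold changes were below 0 at 42 loci (51.6% of all genes) and above 0 at *Hist1h1a* and the locus of *Hist1h2bq*. All 44 were below 0 on an *Rn7sk* scale (73.4% of all genes). This scale was set by the share of *Rn7sk* in the counts of each library. The study also scaled by *Rn7sk*, but by a ratio of its log2 CPM values, which was not tried here. The median log2 fold change of the 44 loci was -0.29, against -0.01 for all genes, and -0.53 against -0.26 on the *Rn7sk* scale used here. The median SE was 0.719, against 0.372 over all genes, so that a change of the size of these medians was not detectable here.

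The 3 most negative estimates were those of H4 loci. *Hist1h4m* with *Hist1h4j* had a log2 fold change of -0.69 (SE 0.944). *Hist1h4h*, at 181, 221 and 48.9 CPM in KO and 147, 274 and 260.0 CPM in WT NPCs, had -0.60 (SE 0.555). *Hist1h4f* with *Hist1h4c* had -0.59. They were followed by *Hist1h2bg* (-0.55), *Hist1h2al* (-0.52), *Hist2h2bb* with Gm42743 (-0.51), *Hist1h4d* (-0.48), *Hist1h2ab* (-0.45), *Hist2h3c2* (-0.43) and *Hist1h2ae* with *Hist1h2ac* (-0.43). Adjusted p values over all members lay between 0.983 and 0.999. By type, with the mixed loci left out, the median was -0.37 for H4, -0.29 for H2A, -0.25 for H3, -0.19 for H2B and -0.11 for the 2 H1 loci. Without KO NPC 3 each of these medians was above 0, at 0.18 for H4, 0.22 for H2A, 0.23 for H3, 0.12 for H2B and 0.38 for H1.

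Without KO NPC 3 the direction turned. The log2 fold change was then above 0 at 37 of 45 loci tested, against 47.8% of all genes, with a median of 0.20 (-0.01 for all genes) and a median SE of 0.164. Again 0 loci were called, by the quasi-likelihood test (0.0% of all genes) or the likelihood ratio test (0.346%). At an unadjusted p under 0.05 there were 6 loci by the quasi-likelihood test, all higher in KO, against 1.07% of all genes that were higher at that p. By the likelihood ratio test there were 2, against 3.04% of all genes. KO NPC 1 and 2 both lay above every WT library at 15 of 44 loci (8.81% of all genes) and both below at 0 (8.51%).

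*Hist1h1a* had the lowest of these p values. Its log2 fold change without KO NPC 3 was 0.54 (SE 0.117, unadjusted p = 0.00514 and adjusted p = 1.00 by edgeR's quasi-likelihood test). *Hist1h4n* followed with 0.44 (SE 0.122). *Hist1h3h* was at 305, 274 and 40.6 CPM in KO and 238, 244 and 206 CPM in WT NPCs, and its estimate was 0.33 (SE 0.118). *Hist1h3e* with *Hist1h3a* and *Hist1h3c* was at 809, 841 and 128 CPM in KO and 651, 720.2 and 648 CPM in WT NPCs, with 0.29 (SE 0.0938). *Hist1h2bc* (0.29) and *Hist1h1b* (0.23) were the others. At all 6, KO NPC 1 and 2 were the 2 highest libraries and KO NPC 3 the lowest.

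Over all genes tested, libraries with the same replicate number deviated together, though weakly for 2 of the numbers (r = 0.413, 0.169 and 0.195 for numbers 1, 2 and 3). KO and WT were therefore also compared within numbers. KO NPC 1 was above WT NPC 1 at 39 of 44 loci (50.1% of all genes), with a median log2 ratio of 0.33. KO NPC 2 was above WT NPC 2 at 26 of 44 (50.6%), with a median of 0.04. KO NPC 3 was below WT NPC 3 at 43 of 44 (51.3%), with a median of -2.91. Within numbers, the higher KO values thus lay mainly in number 1, where WT NPC 1 had the lowest summed histone level of the WT libraries (10548 CPM). Of the KO sums themselves, KO NPC 2 (13959 CPM) was above KO NPC 1 (13066 CPM). With the replicate number as a block the median log2 fold change was -0.74 and 0 members were called (0.0% of all genes). Without both libraries numbered 3, 37 of 45 loci were above 0 (48.5% of all genes), with a median of 0.17, and 2 had an unadjusted p under 0.05 (2.8%).

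**Figure D4:**
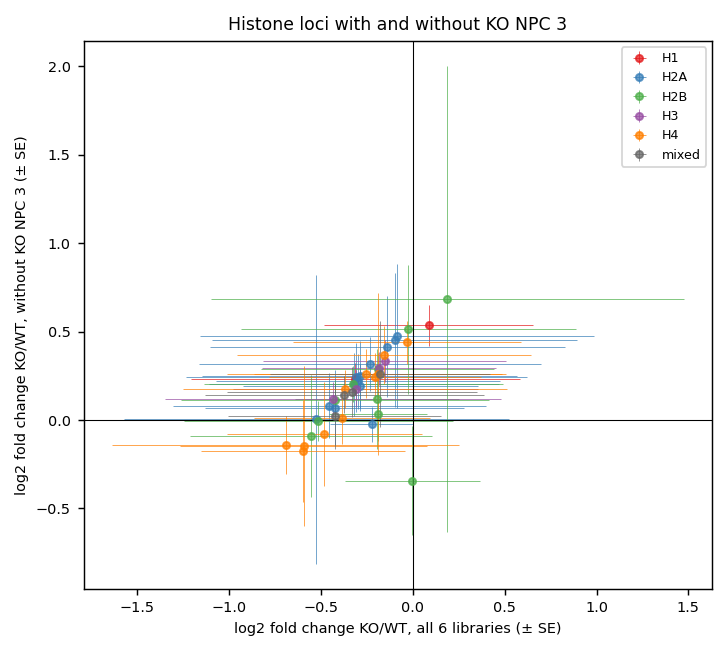
Log2 fold change of KO against WT NPCs at each histone locus tested, from all 6 libraries (horizontal) and without KO NPC 3 (vertical), with SE as bars and color for the histone type. Of these points 42 lie left of 0, most of them lie above 0 on the vertical axis, and the horizontal bars are longer than the vertical ones for most loci.

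Some members varied between libraries of a group in ways the group did not follow. The locus of *Hist1h2bq* and Gm19658 was at 27.3, 251 and 18.4 CPM in KO and 24.3, 23.1 and 213 CPM in WT NPCs. KO NPC 2 and WT NPC 3 thus stood about alike and far above the other 4. *Hist1h2al* was at 70.9, 26.3 and 3.81 CPM in KO and 21.9, 99.1 and 24.4 CPM in WT NPCs, with KO NPC 1 and WT NPC 2 on top. Several H4 genes and *Hist1h2bg* were lower in the libraries numbered 1 of both groups. *Hist1h4f* with *Hist1h4c* was at 243, 391 and 63.3 CPM in KO and 174, 423 and 455 CPM in WT NPCs, and *Hist1h4i* at 127, 221 and 34.5 CPM in KO and 73.6, 170.0 and 193 CPM in WT NPCs. Number 1 lay below number 2 in both groups at 20 of 44 loci (32.3% of all genes) and above it in both at 6 (31.6%). The H2A genes *Hist1h2ag*, *Hist1h2ao* and *Hist1h2ap* were among these 6, with WT NPC 3 the lowest WT library at each.

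In KO NPCs, the study lists 11 of the histone genes among those with an increased peak density of POLR2A, the largest Pol II subunit. This list came from ChIP-seq data not analysed here. In RNA, 10 of these 11 genes had a log2 fold change below 0 (51.6% of all genes). The median was -0.29, and 0 were called (0.0% of all genes). Without KO NPC 3 the median was 0.24. The locus that holds *Hist1h3f* had the highest CPM, at 1616, 1663 and 220.4 in KO and 1228, 1625 and 1550.0 in WT NPCs. *Hist1h3a*, *Hist1h3f*, *Hist1h4c* and *Hist2h2aa2* lie in merged loci, so their counts include other members.

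The machinery that makes, cuts and degrades histone mRNA varied far less. Of 22 symbols listed, 20 had a row and were tested. The log2 fold change was below 0 for 16 (51.6% of all genes) and above for 4, with a median of -0.08 (0.08 without KO NPC 3). None was called, with 0 of 20 against 0.0% of all genes. *Slbp*, whose protein binds the stem-loops shown above, was at 38.5, 34.0 and 12.2 CPM in KO and 30.8, 30.4 and 36.1 CPM in WT NPCs, 2.78-fold below the others in KO NPC 3. *Lsm11*, a protein of the U7 particle, was 2.2-fold below, and *Lsm10*, its partner, 1.36-fold. *Npat*, the coactivator of histone gene transcription, was at 113, 120 and 88.2 CPM in KO and 109, 116 and 112 CPM in WT NPCs, a ratio of 1.28. *Casp8ap2* (FLASH), which joins NPAT in histone locus bodies, had a ratio of 1.73. *Sympk* and *Upf1*, of 3' end cleavage and of RNA decay, had 1.12 and 1.46. *Hinfp*, a factor for H4 promoters, and *Zfp473*, a U7-associated zinc finger protein, had 1.12 and 1.18. The summed level of the list was 1354 CPM in KO NPC 3 and 1763 to 1917 CPM elsewhere. The *Rnu7* row is merged with *Atn1* and other genes and says nothing of U7 RNA itself.

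Replication-independent histone variants, most of which are made throughout the cycle, split in KO NPC 3. *H3f3b* and *H3f3a*, both encoding H3.3, were close to the others (ratios 1.06 and 0.947), and *H2afy*, encoding macroH2A1, had 1.52. *H3f3b* was at 364, 385 and 362 CPM in KO and 381, 409 and 408 CPM in WT NPCs. *H2afx*, encoding the variant phosphorylated at DNA breaks, was at 291, 249 and 35.8 CPM in KO and 303, 286 and 313 CPM in WT NPCs, a ratio of 8.13. *H2afz* had 5.17 and *Cenpa*, the centromeric H3, 15.1. Of 12 variants tested, 9 were below 0 (51.6% of all genes) and 3 above, with a median of -0.19 (-0.02 without KO NPC 3). Of these variants 0 were called (0.0% of all genes). Ratios of the chaperones ranged from 0.751 to 14.9. *Asf1b* (14.9), *Chaf1b* (12.2) and *Chaf1a* (9.53) had the highest, whereas *Rbbp4*, which encodes the third subunit of the same deposition complex as the *Chaf1* genes, CAF-1, had 1.61. Of the most abundant members, *Nap1l1* had a ratio of 2.62, *Supt16* of 2.0 and *Atrx* of 1.07. Of 20 chaperone genes, 15 were below 0 (51.6% of all genes) and 5 above, with a median of -0.21 (0.06 without KO NPC 3). Again 0 were called (0.0% of all genes).

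S-phase genes were low in KO NPC 3 as the histone genes were, while the order of the other 5 libraries was not the same for both sums. The summed level of 25 S-phase genes was 338 CPM in KO NPC 3 and 2267 to 2812 CPM in the others, a ratio of 7.82. *Rrm1* was 6.37-fold and *Mcm4* 7.45-fold below the others. *Mcm3* was 17.6-fold, *Rrm2* 19.6-fold and *Uhrf1* 28.5-fold below the others in KO NPC 3. The histone sum divided by the S-phase sum was 4.65, 5.08 and 5.59 in KO and 4.65, 5.51 and 4.60 in WT NPCs. KO NPC 3 thus lay just above the other 5 in this ratio. Genes of G2 and M phase differed more, with 135 CPM in KO NPC 3 and 3460.1 to 4146 CPM elsewhere (28.3-fold). *Mki67*, a proliferation marker, had a ratio of 29.9, and *Top2a* and *Ccnb1*, encoding topoisomerase II alpha and cyclin B1, had 27.0 and 38.5. The histone sum divided by that sum was 14.0 in KO NPC 3 and 3.05 to 3.64 in the others. With all libraries, all 25 S-phase and all 18 G2 and M genes had log2 fold changes below 0 (51.6% of all genes). Their medians were -0.34 and -0.44, and 0 were called (0.0% of all genes). Without KO NPC 3 the medians were 0.17 and 0.12, next to 0.20 for the histone loci.

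**Figure D5:**
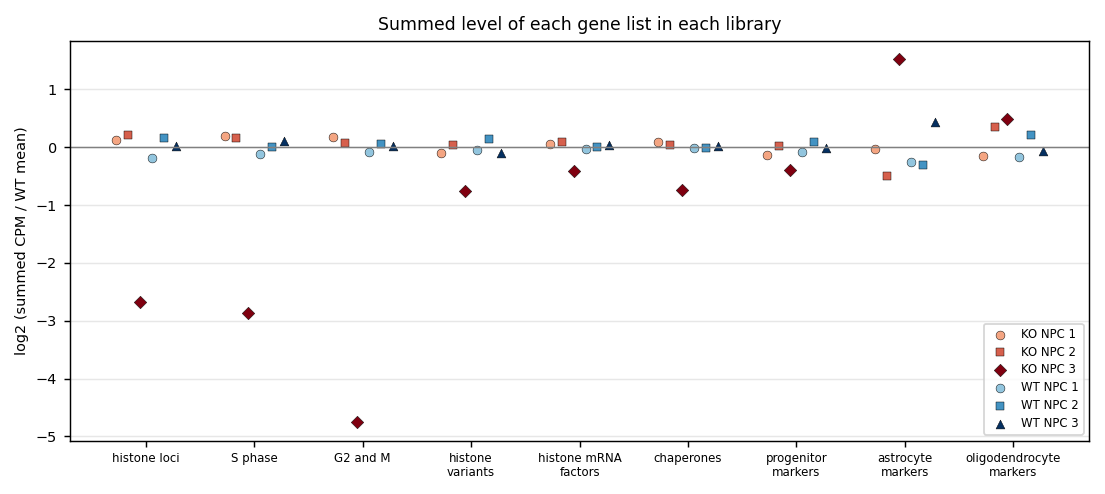
Log2 of each list's summed CPM over the mean of the 3 WT libraries, with 1 point per library. KO NPC 3 lies far below the others for the histone, S-phase and G2 and M lists, less so for variants, mRNA factors and chaperones, and above them for astrocyte markers.

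Markers of cell types were checked beside this. Of 15 neural progenitor markers all were tested, and their sum was 3804 CPM in KO NPC 3 and 4586 to 5331 CPM in the others. *Sox2* was present throughout, at 535 to 811 CPM. The 6 astrocyte markers summed to 2442 CPM in KO NPC 3, 601 to 829.7 CPM in the other KO and 685 to 1151 CPM in the WT libraries, with *Aqp4* at 1040.0 CPM in KO NPC 3 but *Slc1a2* at 271 CPM there and 219 to 520.2 CPM elsewhere. The 9 oligodendrocyte lineage markers summed to 4165 CPM in KO NPC 3, 2660.0 and 3755 CPM in KO NPC 1 and 2, and 2623 to 3436 CPM in WT NPCs, but *Olig1* was at 655 CPM in KO NPC 3 and 1175 to 1350.5 CPM elsewhere. The 10 neuron markers summed to 1396 CPM in KO NPC 3, 823 and 921 CPM in KO NPC 1 and 2, and 855 to 1488 CPM in WT NPCs. Microglia markers summed to at most 1.38 CPM, fibroblast markers to at most 7.45, blood markers to at most 0.233 and endothelial markers to at most 15.4, of which *Kdr* gave 14.8 in KO NPC 3. The part of cell makeup and cell cycle in the histone values was not tested.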

How the data were processed

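RNA-seq libraries of 3 KO and 3 WT NPC cultures were analysed. Per the labels, the authors removed rRNA, prepared directional libraries and sequenced 100 bases from each end. The submitters' processing notes name Trimmomatic, STAR, Picard and StringTie, with edgeR, and the build GRCm38. They deposited raw read counts per assembled locus, and beside them log2 CPM and log2 counts relative to *Rn7sk*, which were deposited by the authors and not used here, nor were 2 further columns of the authors' group means relative to *Rn7sk*. The sources used here do not give how reads were assigned to loci or whether strand was used.

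Counts were summed per reference gene, and the 6596 loci without a gene name were not used. Genes passing filterByExpr (minimum count 10, minimum total 15) were scaled by TMM and tested with the quasi-likelihood test of edgeR 4.0.16 (R 4.3.3), with Benjamini-Hochberg adjustment over all 19073 genes and a threshold of 0.05. SE is the log2 fold change over the square root of F. CPM uses TMM-scaled library sizes, and a ratio is the median of the other 5 libraries over KO NPC 3. Same-numbered libraries deviated together (r = 0.413, 0.169 and 0.195 for numbers 1, 2 and 3, at most 0.0579 for other pairs). The deviations were taken from the mean of each group, so the r values of same-numbered and other pairs are not independent. The contrast between them is thus weak evidence of pairing. Because the study describes 3 pairs of replicates, the numbers were taken as pairs, although which libraries form a pair is known only from these numbers.

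The members and lists were chosen with earlier results of these data known. Genes were named by rule: per type the 3 loci with the highest level per kb, the 10 with the largest log2 fold change, those at an unadjusted p under 0.05, up to 4 by mean CPM of each list, and chosen mRNA factors. Others were named after their values were seen. The test was checked on simulated data. Alternatives were *Rn7sk* scaling, total counts, no filter, the likelihood ratio test, DESeq2 1.42.0, the replicate block, leaving out libraries and leaving out merged loci.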

Additional observations from a re-analysis of the deposited data

How the results depend on the processing

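No histone locus was called in any of the alternatives tried, planned or added. The median log2 fold change of the histone loci tested was -0.53 on the *Rn7sk* scale, where that of all genes was -0.26, and -0.74 with the replicate block. It was -0.23 over the loci that name 1 gene. When 1 library at a time was left out it ranged from -0.65 to 0.20, and the log2 ratio of the summed CPM from -0.65 to 0.16, where both were above 0 without KO NPC 3 and below 0 without any other library. The cause was not tested. The number of genes called over all genes was 0 with each library left out, 4 on the *Rn7sk* scale, 5 without the filter, 17 by the likelihood ratio test, 35 by DESeq2, 0 with the replicate block and 38 with the block and the likelihood ratio test. It was 68 without KO NPC 3 by the likelihood ratio test, an alternative chosen after seeing the data. *Armc5*, the gene disrupted, passed the threshold wherever any gene did, with log2 fold changes of -4.94 on the *Rn7sk* scale, -4.70 without the filter, -4.68 by the likelihood ratio test, -4.67 by DESeq2, -4.75 with the block and the likelihood ratio test and -4.46 by that test without KO NPC 3. It ranged from -5.02 to -4.45 with 1 library left out. In the quasi-likelihood test the replicate block changed no call.

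With 3 libraries a group, of which 1 stands apart, the median SE of the log2 fold change was 0.719 at the histone loci and 0.164 without KO NPC 3. Near-identical genes share reads, which limits single members more than sums.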
